A study of Mus musculus with 36 samples.

Results

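The hypothalamic transcriptome of mice injected with TNFα together with the lower dose of IL-6 (the TNF + IL-6 Low group) was compared with that of mice injected with saline (Control). The samples were chosen by their titles, 6 arrays in each group, which makes 12 of the 36 arrays of the series. All mice were male C57BL/6 animals, and each array holds the hypothalamic RNA of 1 mouse. The TNF + IL-6 Low mice received 15 pg TNFα and 50 pg IL-6 intraperitoneally in 50 µl, the Control mice received 50 µl of saline, and both groups were killed 5 h later. In addition, 3 groups served for direct comparisons: IL-6 Low (50 pg IL-6), TNF + IL-6 High (15 pg TNFα with the higher IL-6 dose) and TNF (15 pg TNFα). Their ages are not given in the sources used here. Each sample is a whole hypothalamus, so every value is a mean over neurons, glia, vessels and whatever adjoining tissue came with the dissection.

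TNFα acts through TNF receptors on NF-kB, a transcription factor that switches on its own inhibitors, chemokines and adhesion molecules. IL-6 acts through its receptor and the shared subunit gp130 on the kinases of the JAK family and on STAT3, which in turn drives the feedback inhibitor SOCS3. In the hypothalamus, cytokines in the blood meet the vessels, the meninges and the tanycytes before they meet neurons. Food intake is governed there by arcuate neurons that make NPY, which promotes eating, and by neurons that make POMC and CART, which restrain it, and serotonin acts on both. The comparison asks which of these systems differed in transcript level when both cytokines were given.

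Values are log2 intensities as deposited, and they were compared only between arrays and never between genes. Median log2 intensities of the 12 arrays lay between 5.58 and 5.71, and the median correlation of an array with the others was at least 0.972. TNF replicate 4, in neither group compared, stood apart at 0.270 and was left out of the fit. The label and the array name of Control replicates 5 and 6 give different mouse numbers, 43 against 48 and 49 against 54, although both call the mice controls, and the numbers in the array names belong to mice of TNF + IL-6 High in the labels. TNF + IL-6 Low replicate 3 carried pituitary transcripts far above the other arrays, and Control replicates 1 and 6 lay at opposite ends for meningeal and thalamic markers. For the marker lists and some of the genes that rest on these arrays, values without them are given below.

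No gene passed. Of 15049 genes tested with limma, 0 (0%) had an adjusted p under 0.05, and the smallest adjusted p was 0.475. At an unadjusted p under 0.05, 619 genes (4.11%) were higher and 823 (5.47%) lower in TNF + IL-6 Low, or 9.58% together, where 752.5 genes are expected by chance. Group means differed by more than 1.5-fold for 26 genes higher (0.173%) and 16 lower (0.106%). The arrays of the groups did not overlap for 17 genes higher (0.113%) and 12 lower (0.0797%). Across all genes 44.1% were higher by any amount, with a median log2 difference of -0.02 and a median SE of 0.10. The share of the genes at p under 0.05 that were higher was 42.9%, but it was 72.6% after each array was centred on its median and 55.5% after quantile normalization.

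These counts depended on single arrays. The number higher at p under 0.05 was 296 without Control replicate 1, 390 without Control replicate 5, 404 without TNF + IL-6 Low replicate 2 and 342 without TNF + IL-6 Low replicate 5. The number lower was 1601 without TNF + IL-6 Low replicate 1, 1245 without replicate 4, 292 without replicate 5 and 487 without replicate 6 of that group. The 26 genes higher by 1.5-fold became 16 without Control replicate 1 and 41 without Control replicate 6. The 16 genes lower became 2, 34, 4 and 45 without Control replicates 1, 3, 4 and 6, and 29, 25 and 7 without TNF + IL-6 Low replicates 1, 4 and 6.

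**Figure D1:**
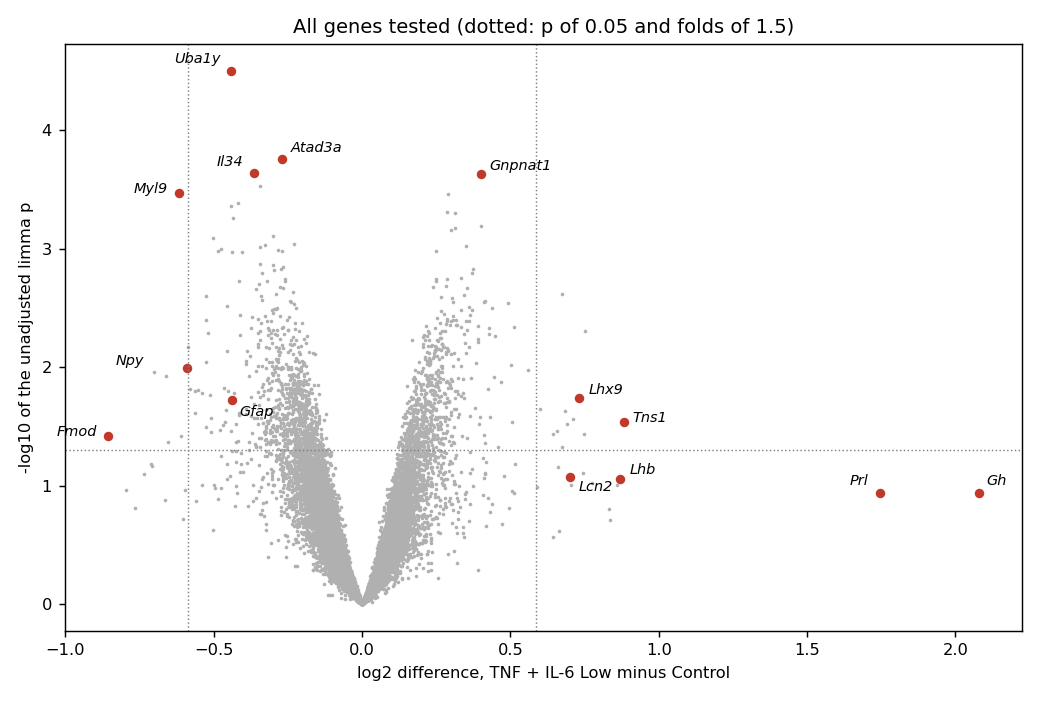
Difference in log2 intensity between TNF + IL-6 Low and Control (x axis) against the negative log10 of the unadjusted limma p (y axis) for all 15049 genes tested, each a grey point, with genes of the text in red. Gh and Prl lie far to the right at 2.08 and 1.74 but low on the y axis, while Uba1y, Atad3a, Il34 and Gnpnat1, the genes highest on it, differ by 0.44 or less.

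The cytokines and their receptors gave little. Il6 itself stayed below the minimum intensity and was not tested. Tnf lay between 3.69 and 4.31 on the TNF + IL-6 Low arrays and between 3.75 and 4.48 on the Control arrays, a difference of -0.06 (SE 0.13). Its treated values all lay below the minimum intensity of 20 as well. Il6st, which encodes gp130, was at 9.07 to 9.31 against 9.22 to 9.51 in Control, with 4 of 6 controls above every treated array (difference -0.14, SE 0.07, adjusted p = 0.514 from limma). Jak2, the kinase that works on gp130 and other cytokine receptors, ran the other way. Its TNF + IL-6 Low arrays lay between 7.75 and 7.98 and its Control arrays between 7.51 and 7.84, with only Control replicate 6 inside the treated range (difference 0.18, SE 0.07, adjusted p = 0.511 from limma). Stat3 itself differed by -0.18 (SE 0.10), which did not reach an unadjusted p of 0.05.

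Among the genes STAT3 switches on, Socs3, which blocks signalling from gp130, had a median of 4.97 against 5.02 in Control (difference -0.09, SE 0.10, adjusted p = 0.775 from limma). Socs2, a related inhibitor, was higher by 0.22 (SE 0.10), but 7.79 on TNF + IL-6 Low replicate 3 made most of that, and the difference was 0.09 without this array. Vim and Gfap, which encode the filament proteins of tanycytes and astrocytes and which STAT3 can induce, were both lower. Gfap lay at 9.19, 8.74, 8.24, 8.70, 8.43 and 8.35 on TNF + IL-6 Low replicates 1 to 6 and at 9.31, 9.02, 8.78, 9.59, 9.44 and 8.13 on Control replicates 1 to 6. In all 3 controls exceeded every treated array and the lowest value of all was Control replicate 6, so the groups overlapped (difference -0.44, SE 0.18, adjusted p = 0.511 from limma). Vim lay between 7.74 and 8.45 against 7.90 and 9.19 in Control (difference -0.45, SE 0.14). In bulk tissue fewer such cells in a sample and less RNA per cell cannot be told apart, here and for every cell type below. Of 30 tested genes of the IL-6 and STAT3 list 2 were higher and 3 lower at p under 0.05, which is 16.7% against 9.58% of all genes, and their median log2 difference was -0.05. Without TNF + IL-6 Low replicate 3 and Control replicates 1 and 6, a set of 3 arrays chosen after seeing the marker levels, the count was 1 higher and 4 lower. The median was -0.10 without TNF + IL-6 Low replicate 3 and -0.03 without Control replicate 1.

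The targets of NF-kB differed little as well. Nfkbia, the inhibitor that NF-kB induces within its own feedback loop, had a median of 7.50 against 7.34 and differed by 0.01 (SE 0.14, adjusted p = 0.985 from limma). The adhesion molecule gene Icam1 differed by -0.07 (SE 0.11), the neutrophil chemokine gene Cxcl1 by -0.16 (SE 0.11) and the monocyte chemokine gene Ccl2 by 0.11 (SE 0.10). Birc2, which encodes an inhibitor of apoptosis that sits on TNF receptors, was among the better separated genes of the list. Its treated arrays lay between 7.45 and 7.68 and its Control arrays between 7.17 and 7.45, with 5 of 6 treated arrays above every control (difference 0.25, SE 0.09, adjusted p = 0.511 from limma). Csf1, a growth factor of microglia, was lower by 0.19 (SE 0.08) with 4 of 6 treated arrays below every control. These were the members at p under 0.05, 1 higher and 1 lower of 35 tested (5.7% against 9.58% of all genes), with a median of -0.02, equal to that of all genes.

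The proximal promoters of the direct targets Socs3 and Nfkbia, printed here out of several searched, each hold a match to the motif of their pathway. They run from 250 bases before to 50 bases after the start in RefSeq (build GRCm38.p6, minus strand), with the Socs3 window at chr11:117969317-117969616 and the Nfkbia window at chr12:55492598-55492897. Capitals mark the STAT motif TTCNNNGAA in the first and the kappa B consensus, the NF-kB motif, in the second, both searched on either strand.
Socs3: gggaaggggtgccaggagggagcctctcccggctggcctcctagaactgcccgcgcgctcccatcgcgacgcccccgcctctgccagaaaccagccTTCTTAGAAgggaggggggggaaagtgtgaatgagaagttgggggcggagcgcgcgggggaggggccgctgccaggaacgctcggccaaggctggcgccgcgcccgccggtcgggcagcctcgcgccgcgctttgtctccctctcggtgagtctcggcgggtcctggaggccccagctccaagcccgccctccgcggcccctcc
Nfkbia: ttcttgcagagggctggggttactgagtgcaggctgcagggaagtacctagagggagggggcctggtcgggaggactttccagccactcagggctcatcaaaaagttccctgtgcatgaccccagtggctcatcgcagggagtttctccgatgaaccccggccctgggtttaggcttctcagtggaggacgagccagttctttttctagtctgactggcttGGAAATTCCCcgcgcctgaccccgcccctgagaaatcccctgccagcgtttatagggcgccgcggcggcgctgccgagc
The STAT motif occurs in 8.3% of all 32851 windows, or for 9.6% of genes with a window, and for 20.0% of such genes of the IL-6 and STAT3 list (5 of 25) and 27.6% of those of the TNF and NF-kB list (8 of 29). The kappa B consensus occurs in 4.5% of all windows, or for 5.1% of genes, and for 4 of 25 and 13 of 29 genes of the same lists. Of the other windows searched, those of Lcn2 and Npy and the second of Tnfaip3 held neither motif, and that of Icam1 held a STAT match only. The windows of Cish, of the IL-6 and STAT3 list, held STAT matches, and those of Cxcl1 and the first of Tnfaip3, of the NF-kB list, kappa B matches. A match is a match of letters only and its function was not tested. Both Socs3 and Nfkbia differed by less than their standard error.

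Lcn2, which encodes lipocalin 2, an acute-phase protein that binds bacterial iron carriers and that both pathways induce, was the member of either list with the largest difference. Its values were 5.85, 5.28, 8.09, 4.77, 4.79 and 5.67 on TNF + IL-6 Low replicates 1 to 6 and 4.89, 4.74, 4.59, 5.47, 5.35 and 5.21 on Control replicates 1 to 6. The groups overlapped, and the difference of 0.70 (SE 0.39) gave a two-sided exact permutation p of 0.193, the lowest that 6 against 6 arrays allow being 0.00216. Replicate 3 carried it, and without that array, which also held the pituitary transcripts, the difference was 0.23. Serpina3n, another acute-phase gene of astrocytes, differed by -0.25 (SE 0.16).

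Of 39 interferon response genes 0 were higher and 2 lower at p under 0.05 (5.1%, below the 9.58% of all genes). Oas1a, which senses double-stranded RNA, was at 3.19 to 3.99 against 3.55 to 4.71 in Control, with 3 of 6 treated arrays below every control (difference -0.53, SE 0.16, adjusted p = 0.511 from limma). All its treated values lay below the minimum intensity of 20, so the size of this difference is uncertain. Ifitm1, a membrane protein that hinders virus entry and is also made by vessels, was lower by 0.35 (SE 0.13). Ifih1 and Irgm1 were higher by 0.18 (SE 0.10) and 0.17 (SE 0.09). Among 17 genes of prostaglandin synthesis and reception, Ptges3 was higher by 0.17 (SE 0.08) and Ptgds, the prostaglandin D synthase of the meninges and choroid plexus, lower by 0.48 (SE 0.22). Ptgs2, the cyclooxygenase induced in fever, differed by -0.06 (SE 0.16).

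**Figure D2:**
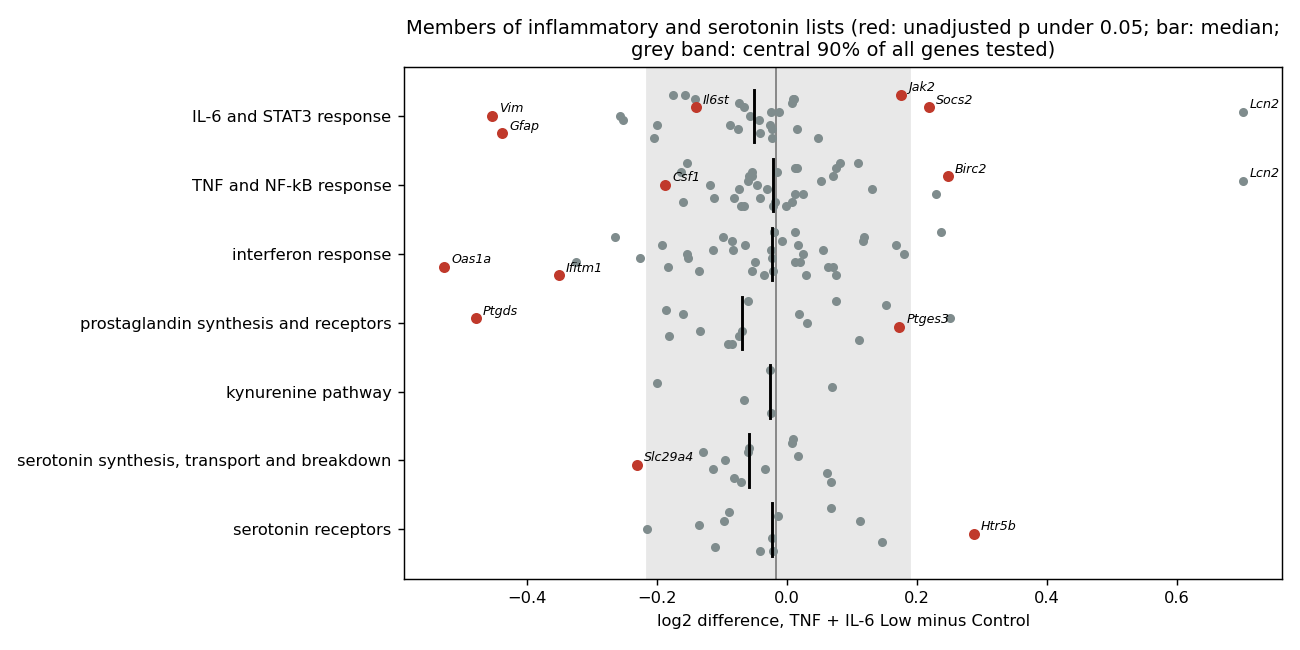
Log2 difference between TNF + IL-6 Low and Control (x axis) for each tested member of 7 gene lists (rows); red points have an unadjusted p under 0.05, black bars are medians and the grey band holds the central 90% of all genes tested. The medians of the lists lie between -0.07 and -0.02, close to the grey line at the median of all genes.

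Among the peptide genes of appetite Npy, Gal, Hcrt and Cartpt were lower in TNF + IL-6 Low, none of them past the adjusted threshold. Npy was at 8.04, 7.84, 7.93, 7.96, 7.61 and 7.46 on TNF + IL-6 Low replicates 1 to 6 and at 9.30, 8.12, 8.37, 8.20, 8.69 and 7.68 on Control replicates 1 to 6. Of the 6 controls 5 lay above every treated array, and the sixth, Control replicate 6, lay among them. The difference of -0.59 (SE 0.22) had an exact permutation p of 0.0238 (two-sided) and an adjusted p of 0.511 from limma, so it did not pass. The difference was -0.41 without Control replicate 1, -0.73 without Control replicate 6 and -0.69 without the 2 controls of doubtful mouse numbers.

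Galanin (Gal) and orexin (Hcrt), which also promote feeding, were lower by 0.44 (SE 0.22) and 0.43 (SE 0.25). For Gal the treated arrays lay between 6.42 and 7.42 and the Control arrays between 6.75 and 7.55, with 3 treated arrays below every control. Ghsr, the ghrelin receptor, was at 6.13 to 6.72 against 6.04 to 6.23. The value of 6.72 was that of TNF + IL-6 Low replicate 2, and the difference of 0.14 was 0.05 without this array. On the side that restrains feeding, Cartpt was at 7.23 to 8.05 against 7.76 to 8.04. Its treated arrays spread beyond the controls on both sides, with 4 below and 1 above every control (difference -0.22, exact permutation p = 0.0996). Without TNF + IL-6 Low replicate 1 this difference was -0.30 with an exact permutation p of 0.0216. Without replicate 5 of that group it was -0.14 with an exact permutation p of 0.199. Leaving out any single array other than replicate 1 gave an exact permutation p from 0.0649 to 0.199. Pomc was at 11.45 on TNF + IL-6 Low replicate 3 and between 5.16 and 6.61 on the other 11 arrays. Its difference of 0.66 (exact permutation p = 0.892) became -0.29 without that array.

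Among receptors, Lepr, through which leptin acts, was lower by 0.25 (SE 0.12), Insr, the insulin receptor, higher by 0.20 (SE 0.09) and Mc4r, the melanocortin receptor that curbs eating, lower by 0.18 (SE 0.10). For Insr 4 of 6 treated arrays exceeded every control. By list, 13 orexigenic genes gave 0 higher and 1 lower at p under 0.05 and 27 anorexigenic genes 1 and 1. Those shares, 7.7% and 7.4%, were below the 9.58% of all genes. Their medians, -0.02 and -0.06, were near that of all genes.

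Peptides with other roles were mostly lower as well. Of 19 tested, 16 were lower by any amount and the median was -0.19, against 55.9% lower and a median of -0.02 for all genes. However, only 1 had a p under 0.05 (5.3% against 9.58% of all genes). Avp (vasopressin) lay between 8.81 and 9.73 against 8.95 and 10.51 (difference -0.45, SE 0.24). Oxt (oxytocin) lay between 9.40 and 10.63 against 9.80 and 10.78 (difference -0.41, SE 0.23). Sst (somatostatin) differed by -0.27 (SE 0.14). Npvf, the gonadotropin-inhibiting peptide and the member with p under 0.05, was lower by 0.36 (SE 0.15). Npb (neuropeptide B) was separated without overlap, at a median of 4.37 against 4.52. Some of its treated values, the lowest at 4.11, lay below the minimum intensity, so the size of its difference is uncertain. Pcsk1n, which encodes an abundant neuroendocrine peptide precursor and was picked after its values were seen, differed by -0.49 (SE 0.14, adjusted p = 0.511 from limma).

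The same treated arrays were low for most of these. Of the treated arrays, replicates 5 and 6 gave the lowest values and replicates 1 and 4 the highest for Npy, Gal, Avp, Oxt, Sst and Pcsk1n. Markers of hypothalamic neurons, mostly transcription factors but with Avp, Oxt, Hcrt and Pomc among them, were lower for 15 of 18 genes, with a median of -0.15. Their mean deviation from the Control mean was -0.38 and -0.49 on replicates 5 and 6, and 0.32 on replicate 3, against -0.24 to 0.26 in Control. The list held 1 member at p under 0.05 (5.6% of those tested), Rax (-0.30, SE 0.13), a transcription factor of tanycytes. Tanycyte and ependymal markers were lower for 13 of 16 genes, with a median of -0.19. At p under 0.05 were 3 of them (18.8% of the list against 9.58% of all genes), Vim, Rax and the ciliary gene Tctex1d4 (-0.21, SE 0.10). The medians of both lists were weaker without 1 array, -0.10 for the peptides without TNF + IL-6 Low replicate 6 and -0.09 for the neuron markers without Control replicate 5. Whether the amount of hypothalamic tissue per sample had a part in the peptide differences was not tested.

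**Figure D3:**
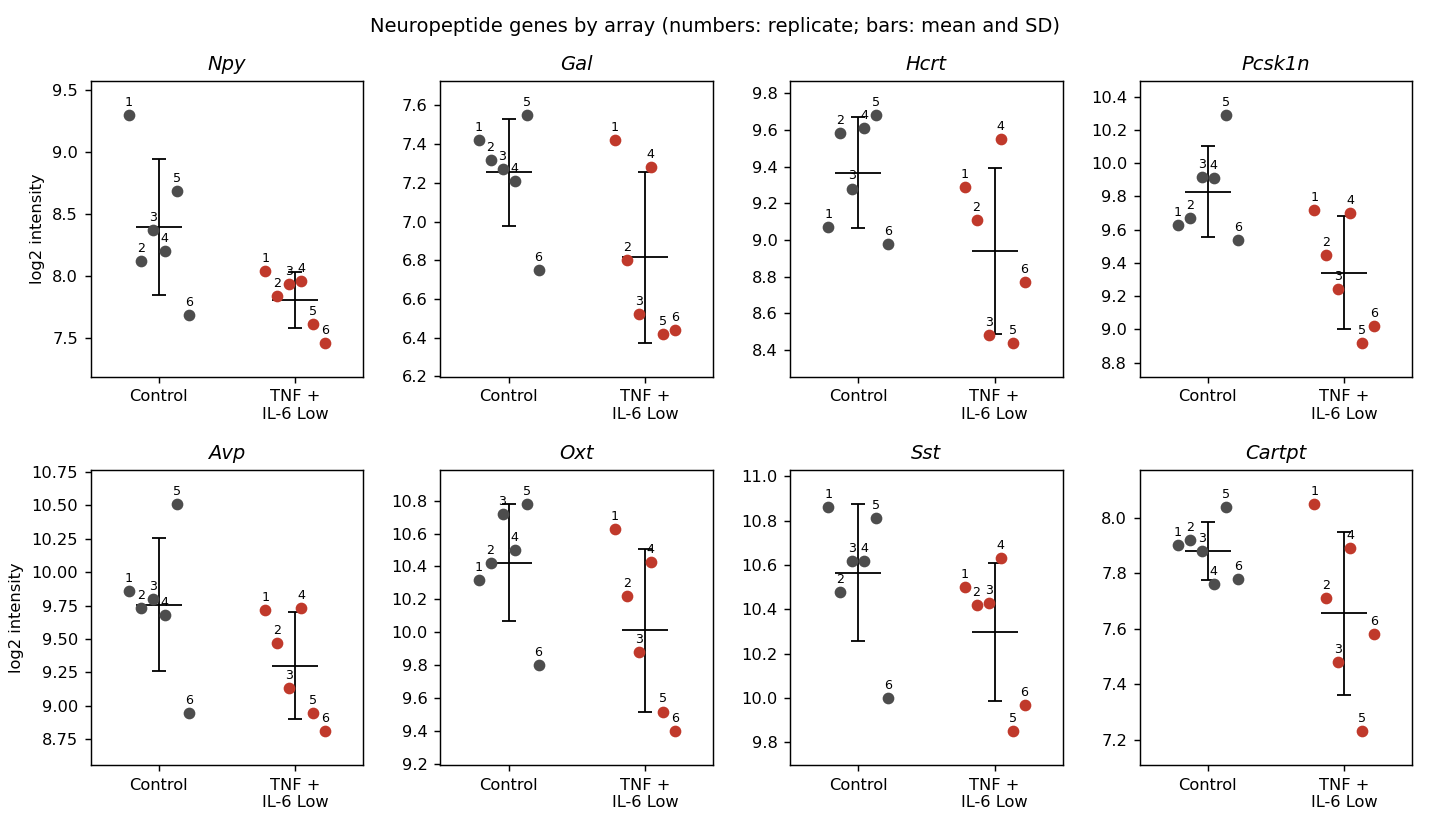
Log2 intensity (y axis) of 8 peptide genes on each array of Control (grey) and TNF + IL-6 Low (red), with replicate numbers above the points and bars for mean and SD (n = 6 per group). In Npy 5 of 6 controls lie above every treated array, and replicates 5 and 6 are the lowest treated arrays for Npy, Avp, Oxt, Sst and Pcsk1n.

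No gene of the serotonin system passed the adjusted threshold. Tph2, the enzyme that makes serotonin in neurons, was at 4.49, 4.56, 4.01, 4.04, 3.73 and 4.02 on TNF + IL-6 Low replicates 1 to 6 and at 4.16, 4.34, 4.11, 4.48, 3.74 and 4.69 on Control replicates 1 to 6. Both groups covered nearly the same range (difference -0.11, SE 0.54, exact permutation p = 0.55). Both also held values under the minimum intensity of 20, so the lack of a difference says little about Tph2. Slc6a4, the serotonin transporter, differed by -0.07 (SE 0.51, exact permutation p = 0.634). Those standard errors come from the fit over all groups and exceed the SD within these groups, 0.32 and 0.33 for Tph2 and 0.25 and 0.27 for Slc6a4. Slc29a4, a low-affinity monoamine transporter, was lower by 0.23 (SE 0.09), with 3 treated arrays below every control. It was the only 1 of 14 genes that make, carry or degrade serotonin at p under 0.05 (7.1% against 9.58% of all genes). Of 13 receptor genes, Htr5b alone (7.7%) had such a p, at 0.29 higher (SE 0.12). Htr2c, through which serotonin engages POMC neurons, was at 9.18 to 9.60 against 8.81 to 9.49 (difference 0.15, SE 0.09). Without Control replicate 1 this difference was 0.06.

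Glial, vascular and meningeal genes were examined next, against a background of 55.9% of all genes lower by any amount and 9.58% at p under 0.05. Il34, a ligand of the microglial receptor CSF1R that neurons make, was at 7.19, 6.90, 6.73, 7.13, 6.54 and 6.76 on TNF + IL-6 Low replicates 1 to 6 and at 7.21, 7.24, 7.19, 7.24, 7.42 and 7.16 on Control replicates 1 to 6. Only replicate 1 of the treated group reached the controls (difference -0.36, SE 0.09, adjusted p = 0.511 from limma). Leaving out single arrays kept the difference between -0.43 and -0.30. The receptor gene Csf1r was lower by 0.14 (SE 0.08) and the complement gene C1qa by 0.21 (SE 0.10). Of 20 microglial and macrophage markers 16 were lower by any amount, 2 of them at p under 0.05, C1qa and Lyve1 (a receptor of perivascular macrophages, -0.28, SE 0.12), and the median was -0.08. The share at p under 0.05 was near that of all genes. That median was -0.04 without Control replicate 4 and -0.13 without TNF + IL-6 Low replicate 1. Astrocyte markers had 14 of 16 lower and a median of -0.09, with Gfap the only 1 at p under 0.05.

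Smooth muscle and pericyte markers were lower for 13 of 16 genes, 5 at p under 0.05 (31.2% against 9.58% of all genes). The mean deviation of the list was 0.36 and 0.37 on Control replicates 1 and 4, while the other 4 controls, from -0.28 to -0.09, lay within the treated range of -0.32 to -0.07. Without TNF + IL-6 Low replicate 3 and Control replicates 1 and 6, 3 were lower at that p. Myl9, a myosin light chain of contractile cells, was at 6.82, 6.49, 6.41, 6.57, 6.08 and 6.47 against 7.88, 6.86, 6.73, 7.60, 6.76 and 6.71 on Control replicates 1 to 6. Of the treated arrays 5 of 6 lay below every control (difference -0.62, SE 0.16, adjusted p = 0.511 from limma), and it was -0.46 without Control replicate 1. Vtn (vitronectin, made by pericytes) and Tagln (an actin-binding protein of smooth muscle) differed by -0.59 (SE 0.20) and -0.51 (SE 0.21). For Tagln the 2 controls at 6.55 and 6.50, replicates 1 and 4, stood well above the other 4. Endothelial markers did not follow, with 8 of 18 higher, 0 at p under 0.05 and a median of -0.02.

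Meningeal fibroblast markers were lower in 23 of 23 genes, with a median of -0.48 and 5 at p under 0.05. Fmod (fibromodulin) lay between 5.23 and 7.40 against 5.43 and 8.45 in Control, a difference of -0.86 (SE 0.40), the most negative of the genes at p under 0.05. It was -0.58 without Control replicate 1 and -1.19 without Control replicate 6. Slc22a6, an organic anion transporter of the meninges, differed by -0.70 (SE 0.26) and Igfbp2 by -0.66 (SE 0.25). The mean deviation of the list was 0.71, -0.04, -0.48, 0.67, 0.12 and -0.97 on Control replicates 1 to 6 and -0.16, -0.56, -0.30, -0.13, -0.56 and -0.98 on TNF + IL-6 Low replicates 1 to 6. Control replicates 1, 2, 4 and 5 lay above every treated array, and Control replicate 6 lay level with the lowest. The median was -0.29 without Control replicate 4 and -0.75 without Control replicate 6. Of 32 collagen and matrix genes 25 were lower, among them Eln (elastin) by 0.34 (SE 0.10).

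Thalamus markers ran opposite to the meningeal ones. They were higher for 13 of 15 genes, 3 at p under 0.05 (20.0% against 9.58% of all genes), with a median of 0.44. Lhx9, a transcription factor of thalamic neurons, was at 6.89, 6.25, 6.35, 6.86, 7.40 and 7.60 against 4.95, 6.04, 6.16, 6.23, 5.95 and 7.63 on Control replicates 1 to 6 (difference 0.73, SE 0.30, adjusted p = 0.511 from limma). Every control but replicate 6 lay below every treated array, and Control replicate 6 was the highest of all. Tcf7l2, another transcription factor of the thalamus, and Vav3 differed by 0.67 (SE 0.33) and 0.71 (SE 0.31). The list's mean deviation ran from -0.14 to 0.98 in TNF + IL-6 Low and from -0.68 to 1.1 in Control. Its median was 0.71 without Control replicate 6 and 0.32 without TNF + IL-6 Low replicate 6. Without Control replicate 1 the differences were 0.49 for Lhx9, 0.48 for Tcf7l2 and 0.53 for Vav3, and without Control replicate 6 they were larger. Tns1 had the largest difference of all genes at p under 0.05, 0.88 (SE 0.39), but was at 0.08 when arrays were weighted by their quality.

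Pituitary markers stood out on 1 array. Gh (growth hormone) was at 5.21, 8.04, 13.57, 5.76, 5.13 and 10.65 on TNF + IL-6 Low replicates 1 to 6 and at 5.12, 4.93, 5.65, 5.88, 5.35 and 8.96 on Control replicates 1 to 6. Replicates 3, 6 and 2 of the treated group and Control replicate 6 were high, and the difference of 2.08 had an exact permutation p of 0.245 and was 0.98 without TNF + IL-6 Low replicate 3. Prl (prolactin) was at 12.82 on replicate 3, 7.58 on replicate 6 and 6.43 on Control replicate 6, and Lhb, Fshb and Cga, which encode gonadotropin subunits, were at 10.64, 9.44 and 11.38 on replicate 3 alone. Of 14 pituitary markers tested 13 were higher with a median of 0.66, which was -0.05 without replicate 3.

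Marker genes were among the largest folds. Of the 26 genes higher by 1.5-fold, 14 were markers on the lists of cell types and adjoining tissue, as were 12 of the 16 lower. The share of such markers among all genes tested was not counted, and the lists were chosen with earlier results of these data known. Of the 14, 8 were pituitary markers, a list whose median was -0.05 without TNF + IL-6 Low replicate 3. The part of the markers in the other differences was not tested. Without TNF + IL-6 Low replicate 3 and Control replicates 1 and 6, the meningeal list had 23 of 23 lower (median -0.63), the thalamus list 14 of 15 higher (median 0.69) and the pituitary list 6 higher and 8 lower. The 3 arrays were chosen by the levels of these same markers, so these values do not test whether the differences persist. Leaving out Control replicate 6 alone gave medians of -0.75 for the meningeal and 0.71 for the thalamus list. Without the same 3 arrays the differences were -0.56 for Npy, -0.36 for Il34, -0.50 for Myl9 and 0.31 for Gnpnat1.

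**Figure D4:**
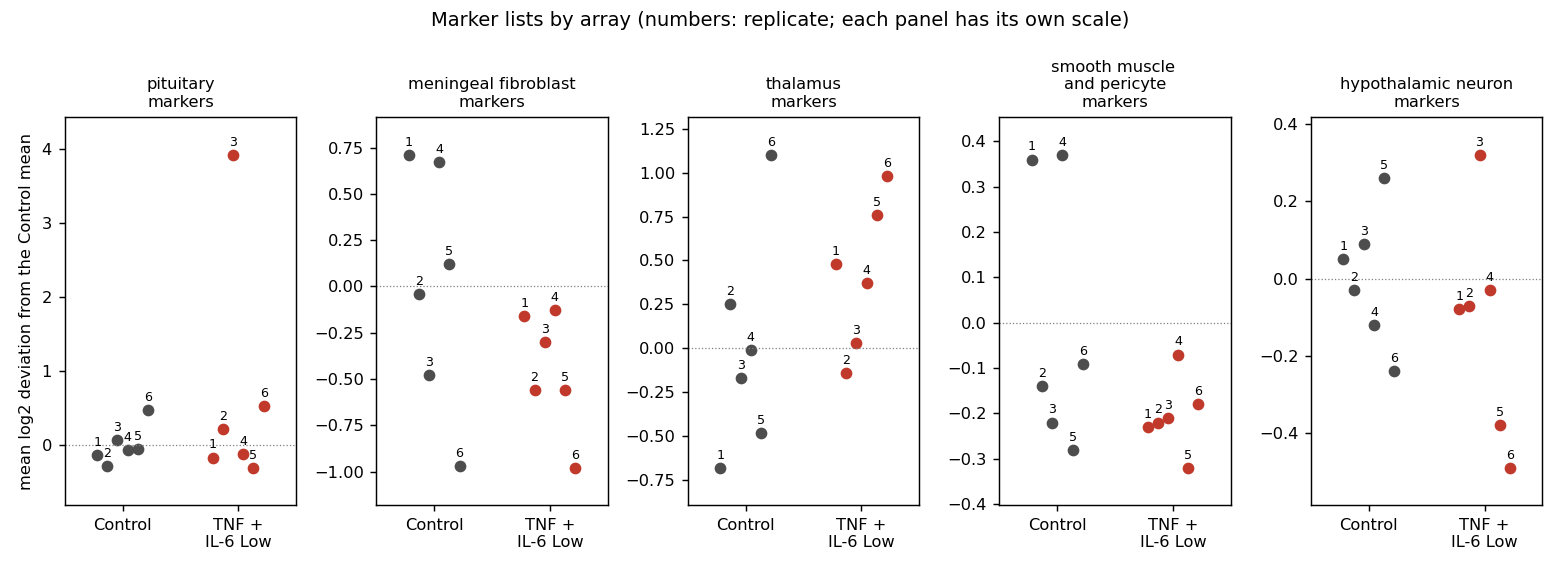
Mean log2 deviation from the Control mean (y axis, a separate scale for each panel) of 5 marker lists on each array of Control (grey) and TNF + IL-6 Low (red), with replicate numbers above the points. Replicate 3 of TNF + IL-6 Low reaches 3.92 for pituitary markers, and Control replicate 6 is among the lowest for meningeal and the highest for thalamus markers.

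The genes whose arrays did not overlap, 0.113% of all genes higher and 0.0797% lower, are described by array without a test. Gnpnat1, an enzyme of the pathway to the sugar donor UDP-N-acetylglucosamine, was at 7.42, 7.59, 7.73, 7.25, 7.68 and 7.51 on TNF + IL-6 Low replicates 1 to 6 and at 6.85, 7.19, 7.18, 7.20, 7.14 and 7.22 on Control replicates 1 to 6 (difference 0.40, SE 0.10, adjusted p = 0.511 from limma). Cep44, a protein of the centrosome, was higher by 0.35 (SE 0.10) and Nol8, a nucleolar protein of ribosome assembly, by 0.29 (SE 0.07). Nanp, which acts in sialic acid synthesis, the histone demethylase gene Kdm6a and the lipid flippase subunit gene Tmem30a were higher by 0.28, 0.22 and 0.19. Slc15a3, a transporter of bacterial peptides and histidine in lysosomes of immune cells, was higher by 0.34 (SE 0.14).

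On the lower side, Uba1y, the Y-linked copy of the ubiquitin-activating enzyme, had the smallest p of all genes. It was at 4.44, 4.28, 4.31, 4.20, 3.97 and 4.09 on TNF + IL-6 Low replicates 1 to 6 and at 4.86, 4.69, 4.59, 4.53, 4.64 and 4.62 on Control replicates 1 to 6 (difference -0.44, SE 0.09, adjusted p = 0.475 from limma). It has a close copy on the X chromosome, Uba1, so its value is uncertain. Every treated value of Uba1y but that of replicate 1 also lay below the minimum intensity, while all its Control values lay above it. The size of its difference is therefore uncertain too. Atad3a and Clpp, a membrane ATPase and a protease subunit of mitochondria, were lower by 0.27 (SE 0.06) and 0.21 (SE 0.08). Tnc (tenascin C), a matrix protein of astrocytes, was lower by 0.31 (SE 0.11). The differences of the non-overlapping genes named here were between 0.19 and 0.44 in size, and none passed the adjusted threshold.

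**Figure D5:**
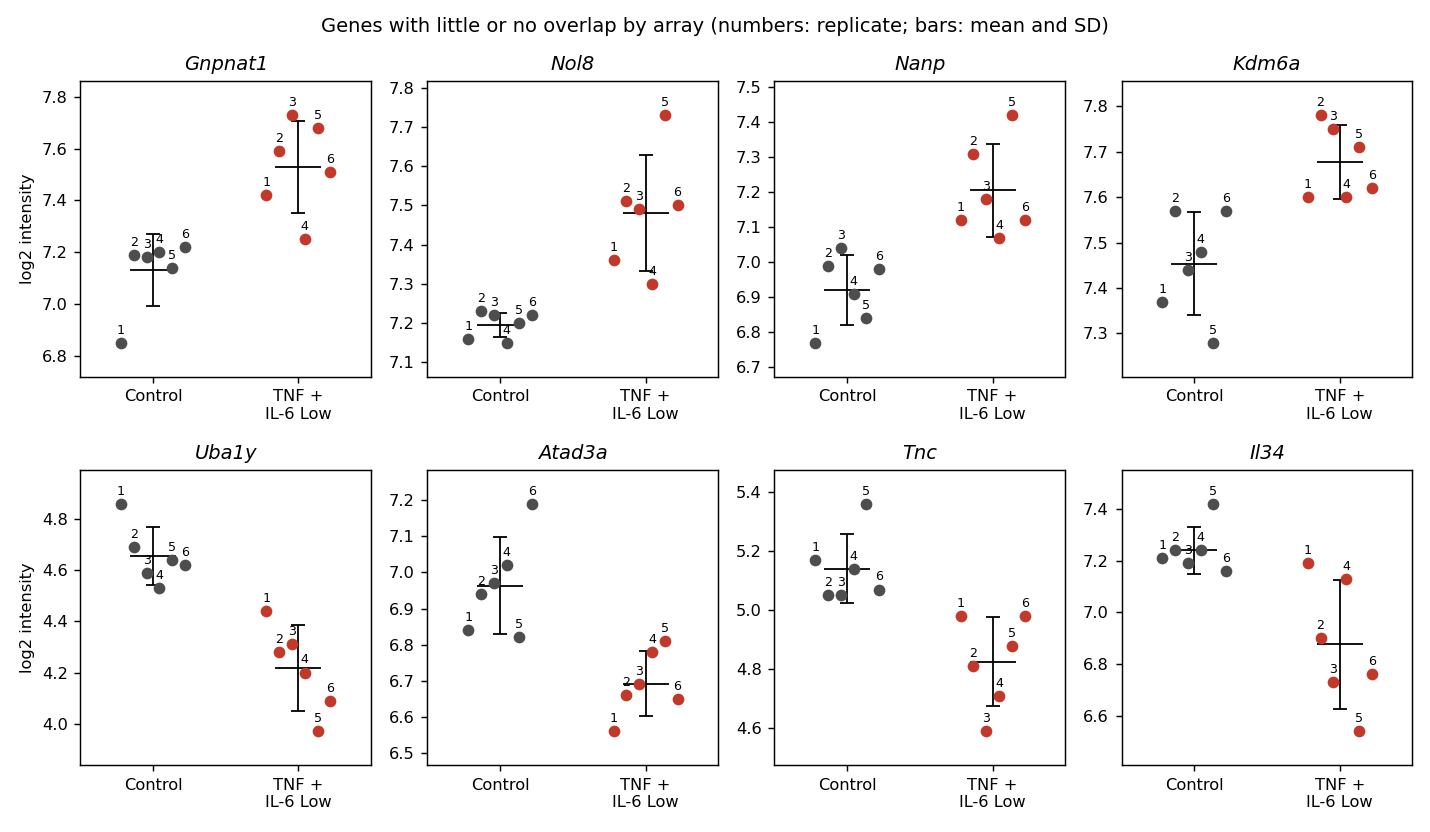
Log2 intensity (y axis) of 8 genes on each array of Control (grey) and TNF + IL-6 Low (red), with replicate numbers above the points and bars for mean and SD (n = 6 per group). Gnpnat1, Nol8, Nanp and Kdm6a are higher and Uba1y, Atad3a and Tnc lower on every treated array, while 1 treated array reaches the controls for Il34.

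Direct comparisons asked whether the combination differed from its agents alone and from the combination with more IL-6. No gene passed in any of them: the smallest adjusted p from limma was 0.893 against IL-6 Low, 0.512 against either other group and 0.991 for the departure from the sum of TNF and IL-6 Low. At an unadjusted p under 0.05, 9.38% of genes differed from TNF, 4.63% from IL-6 Low, 5.35% from TNF + IL-6 High and 3.28% from the sum. Against TNF, 1053 genes were lower and 358 higher, but after median centring 539 were lower and 1037 higher and after quantile normalization 756 and 748, so the split has no settled direction. Leaving out TNF + IL-6 Low replicate 5 made the number lower 497, and leaving out replicate 1 made it 1795.

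Frrs1, a ferric reductase, was among the genes of smallest p that were higher in each of the direct comparisons, by 0.32 (SE 0.09) against TNF, 0.30 (SE 0.08) against IL-6 Low and 0.30 (SE 0.08) against TNF + IL-6 High. All of these comparisons use the same 6 TNF + IL-6 Low arrays. Its difference from Control was 0.31 (SE 0.08), with 5 of 6 treated arrays above every control, while TNF stood at -0.01 and IL-6 Low at 0.02, as did TNF + IL-6 High, against the same Control arrays. Oas1a was lower by 0.57 (SE 0.16) against IL-6 Low and by 0.59 (SE 0.16) against TNF + IL-6 High. Its TNF + IL-6 Low values lay below the minimum intensity of 20. Il34 was lower by 0.34 (SE 0.09) against IL-6 Low. Bcl6b, a transcriptional repressor of endothelial and T cells, was lower by 0.44 (SE 0.11) against TNF and by 0.37 (SE 0.10) against TNF + IL-6 High. Cbr3, a carbonyl reductase, was lower by 0.59 (SE 0.14) than in TNF and, with Psmg3, a proteasome assembly factor, and Incenp, a centromere protein, among the genes most below the sum of the agents (-0.65, -0.59 and -0.46).

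For the genes of feeding and serotonin the groups can only be set side by side, since they share the Control arrays. Npy stood at -0.59 in TNF + IL-6 Low, -0.03 in TNF, -0.46 in IL-6 Low, and it was -0.26 for TNF + IL-6 High. The direct difference of TNF + IL-6 Low from TNF was -0.56 (SE 0.23) and that from IL-6 Low -0.12 (SE 0.22), neither past the threshold (adjusted p = 0.513 and 0.940 from limma). Tph2 stood at -0.11, 0.89, 0.19 and 0.39 in the same order and Slc6a4 at -0.07, 0.84, 0.27 and 0.44. The direct differences from TNF were -1.0 (SE 0.57) and -0.91 (SE 0.54), with adjusted p of 0.572 and 0.588 from limma.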

How the data were processed

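Hypothalamic RNA of 36 mice was measured on Affymetrix Mouse Gene 1.1 ST arrays, 1 array per mouse, in 6 groups. The authors deposited log2 intensities from RMA (version not given in the sources used here), 1 for each of 35556 transcript clusters as the manufacturer defines them. The remapping to Entrez genes and the minimum number of probes described in the methods of the study were not used here. Groups were taken from the sample titles and doses from the methods of the study.

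Of the clusters, 21218 name 1 gene, 1881 several and 12457 none in the platform annotation, and the clusters naming 1 gene were used. The cluster of highest mean was kept for the 1386 of 18820 genes with more than 1, and genes were tested if 3 or more arrays had an intensity over 20. With R 4.3.3 and limma 3.58.1 a linear model with 1 coefficient per group was fitted to 35 arrays without TNF replicate 4, followed by eBayes with an intensity trend and Benjamini-Hochberg adjustment over 15049 genes (threshold 0.05). The fit was tested on simulated data. Exact permutation tests over 924 arrangements were run for 7 genes with SciPy 1.17.1 under Python 3.11.15. Precision is limited by the number of arrays, and p-values measure the spread between mice given separate numbers in the labels.

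The genes named were those of largest difference at an unadjusted p under 0.05 (15 in each direction), up to 5 of smallest p in each list and direct comparison, a fixed set of feeding, serotonin and inflammatory genes, and genes whose arrays did not overlap, with other list members where their values by array were needed. Predicted genes, olfactory receptors and small RNAs were not named. Members, lists and tests were chosen with earlier results of these data known. One gene of feeding is not reported here. Promoter windows came from RefSeq, build GRCm38.p6. Alternatives were other filters, cluster rules, scalings, weights, blocks and array sets.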

Additional observations from a re-analysis of the deposited data

Results flagged for a closer look

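Among 252 groups of 6 arrays, those of 126 genes in TNF + IL-6 Low and in Control, 21 held an array farther from the rest than Dixon's critical value at the 95% level allows, where 1 in 20, or 12.6, is expected by chance. Many of the genes were picked by their values on these same arrays and genes vary together, so 21 against 12.6 is not a test. Of the 21 groups, 10 were flagged for TNF + IL-6 Low replicate 3, the array with the pituitary transcripts. There Cga was at 11.38, Pomc at 11.45, Lhb at 10.64, Fshb at 9.44, Oacyl at 9.78, Epcam at 7.34, Lcn2 at 8.09, Socs2 at 7.79, Tc2n at 7.27 and Gnb3 at 6.85, each the highest of its group. On other TNF + IL-6 Low arrays, Ghsr at 6.72 and Ptgs2 at 6.06 were highest on replicate 2, and Eln at 5.28 and Adnp2 at 6.57 stood apart on replicate 5. In Control, Npb at 4.85 and Il34 at 7.42 were highest on replicate 5, Gh at 8.96, Prl at 6.43 and Clpp at 8.41 were highest on replicate 6, and Gnpnat1 at 6.85 and Tmem30a at 10.21 were lowest on replicate 1. No cause of these values was tested.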

How the results depend on the processing

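No setting brought a gene past an adjusted p of 0.05 in limma. The 30 genes of largest difference among those at an unadjusted p under 0.05 kept their sign in every setting. That choice by p left out genes of similar or larger difference that changed sign, such as Lhb, at 0.87 and at -0.05 without TNF + IL-6 Low replicate 3. Over 3122 values of 126 named genes in up to 25 settings, 21 values of 9 genes had the opposite sign to the reported one, all for genes that did not reach an unadjusted p of 0.05. They were Lhb, Fshb, Cga, Oacyl, Pomc and Fos without TNF + IL-6 Low replicate 3, with Pomc at -0.29 and Cga at -0.17, and Slc6a4, Tnf and Nfkbia, whose reported differences were small. At an unadjusted p under 0.05 the genes higher than Control numbered 105 with all 36 arrays, 1040 after quantile normalization and 1349 after median centring, which shifted the median difference by 0.02, and the genes lower 173 with all 36 arrays and 509 after centring. The share of higher genes, 42.9% as reported, was 72.6% after centring, 55.5% after quantile normalization, 32.6% with array weights and 34.9% without TNF + IL-6 Low replicate 3 and Control replicates 1 and 6. Genes higher by 1.5-fold numbered 12 with array weights, and genes lower 50 without Control replicates 5 and 6, 10 after centring, 9 with array weights and 27 without the 3 arrays. Genes without overlap numbered 118 higher and 66 lower without Control replicates 5 and 6, 192 and 142 without the 3 arrays, 43 higher after centring and 6 lower at an intensity over 50. Fewer arrays make non-overlap easier by construction; the cause of the other shifts was not tested. With all 36 arrays the genes higher and lower numbered 1048 and 932 against TNF, 37 and 58 against IL-6 Low, 89 and 48 against TNF + IL-6 High, and 95 and 241 for the departure from the sum. After median centring they were 1037 and 539, 898 and 207, 835 and 263, and 434 and 193 in that order, after quantile normalization 748 and 756, 594 and 426, 587 and 483, and 273 and 288, and with array weights 338 and 998, 400 and 819, 492 and 284, and 250 and 548.

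Leaving out 1 array at a time gave 296 to 927 genes higher and 292 to 1601 lower at p under 0.05, 16 to 41 higher and 2 to 45 lower by 1.5-fold, and 19 to 89 higher and 15 to 95 lower without overlap. The direct comparisons gave 280 to 492 higher and 497 to 1795 lower against TNF, 213 to 543 and 92 to 883 against IL-6 Low, 355 to 670 and 125 to 655 against TNF + IL-6 High, and 153 to 260 and 182 to 607 for the departure from the sum. The differences ran from -0.73 to -0.41 for Npy, -0.29 to 0.97 for Pomc, -0.30 to -0.14 for Cartpt, -0.22 to -0.03 for Tph2, -0.14 to 0.004 for Slc6a4, 0.23 to 0.90 for Lcn2 and 0.98 to 2.68 for Gh. With the replicate block the counts were 705 higher and 908 lower and 0 genes passed the adjusted threshold. Deviations of arrays of the same number correlated from -0.16 to 0.47, above 0.1 in 2 of 6 pairs, so the numbers were not taken to pair the mice.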

Other observations

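Of 17 clock genes 10 were higher than Control, where 44.1% of all genes were, with a median of 0.07. Their mean deviation reached at most 0.16 on the treated arrays, inside the Control range of -0.14 to 0.21. Cry1 (a repressor of the clock), at 0.23, was the member with an unadjusted p under 0.05 (5.9% against 9.58% of all genes). Immediate early genes had 16 of 23 higher, against the same 44.1%, and 4.3% at an unadjusted p under 0.05. Their median of 0.02 was -0.09 without TNF + IL-6 Low replicate 3 and Control replicates 1 and 6. Glucocorticoid response genes had 14 of 22 lower with a median of -0.05, near the 55.9% lower of all genes. Targets of SRF and MRTF had 18 of 21 lower, with 3 lower and 1 higher at p under 0.05 (19.0% against 9.58% of all genes). Without the 3 arrays just named 14 were lower and 5 higher, with 2 in each direction at that p. Collagen and matrix genes had 5 lower and 1 higher at that p (18.8%). Blood cell markers had 8 of 11 higher (44.1% of all genes were) and 9.1% at that p, while Pf4, a platelet chemokine, was at -0.28. Oligodendrocyte markers had 13 of 18 lower and 0 at p under 0.05, and of the kynurenine enzymes 4 of 5 were lower and 0 at that p. Among markers of other tissue, 1 of 12 choroid plexus genes (Otx2, 0.41), 1 of 17 cerebellar and 1 of 10 serotonergic neuron genes were higher at p under 0.05, and 1 of 16 cortical and hippocampal genes was lower. Markers of striatum and of dopaminergic neurons had 0 at that p, and hindbrain markers 1 in each direction of 6. No gene of these lists passed the adjusted threshold in limma.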
